A study of Cicer arietinum with 8 samples.

Results

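The probes described here were the chickpea cDNA spots whose signal stood above background in every channel measured and whose ratio stayed inside 1.5-fold in salt-treated shoots and roots at 48 h. A probe qualified for the first condition if its code began with U or CA and if at least 3 of its 6 spots exceeded the local background mean plus 2 background SDs in each of 48 channel files. Of 559 such codes on the array, 105 qualified, or 18.8%. For the second condition the log2 ratio of treated over control signal, after background subtraction and centring on the array median of these codes, had to average between -0.585 and 0.585 in salt shoots and in salt roots at 48 h. The 36 probes chosen by these measured values were 34.3% of those present everywhere, and 26 carried U codes and 10 CA codes. The remaining 69 probes that were present everywhere serve below for comparison. The files give codes without gene descriptions, so no gene name or function is attached to any probe, and the organ labels were not checked against marker genes.

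All plants were of chickpea (Cicer arietinum) genotype ICC 3996, and each array compared a stressed with a control channel of the same organ. For drought, 5 potted plants were left to dry to 30% water content from 2 weeks after flowering while 5 controls were held at 80%. For cold, 5 potted plants of that age spent nights at 5 °C and were harvested after night 7, and their controls stayed at 15 to 25 °C. Leaves and flowers with early pods were sampled in both experiments. For salt, seedlings in hydroponic crates received medium with 150 mM sodium chloride, or medium alone, on day 18, and shoots (stem and leaf) and roots were taken from 5 plants after 24 h and 48 h. RNA came from pooled tissue, and each of the 8 conditions had 3 arrays, which the study calls biological replicates. Treated and control dyes were exchanged on array 3. The p-values given here measure the spread between these arrays.

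Genes that stay on at a similar level in all organs and treatments are often called constitutive or housekeeping genes. They usually serve processes that every cell runs, such as protein synthesis, energy metabolism and the cytoskeleton, and they are the usual source of reference genes for normalising expression data. Drought, cold and salt all disturb the water balance of plant cells, and the hormone abscisic acid takes part in the responses to them, while salt adds toxicity from sodium ions and cold slows membranes and enzymes. A probe that is steady under one of these stresses therefore need not be steady under the others.

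Some features of the arrays bear on all values. For roots after 24 h of salt the 3 sets of files were copies of 1 scan, with at least 99.74% of spots sharing the same pixel SD, against 0.0% for any pair of arrays elsewhere, and they are treated as 1 value without a test. The number of probes above background per channel ran from 162 to 581. The lowest count came from roots after 48 h of salt, array 1, control side; its counterpart on array 1 of drought flowers, with 250, was also dim. The median signal of the 36 probes was 2.65 to 39.16 times background over the channels, and that of the other U and CA probes 1.16 to 7.53 times. The presence condition itself required signal above background, so nothing is read from that gap. For the probes present everywhere but left out, the range was similar, at 2.67 to 30.8 times. The median over channels was 11.93 for these and 14.98 for the 36. At the other end of the scale, 8 of the 36 had over 20% of their spots saturated (a median pixel of at least 64000) over the 21 separate arrays. These were CA1074 with 64.3%, U006 with 63.5%, U367 with 60.7%, CA0730 with 52.8%, U060 with 46.0%, CA0849 with 44.4%, U052 with 36.5% and U134 with 25.4%. Where both channels of a probe are saturated the ratio has no measured size.

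The 48 h salt ratios chose the probes and are given as a description only. Of the 69 probes left out, 18 were outside 1.5-fold in shoots alone, 36 in roots alone and 15 in both. The nearest probes inside the limit were U003, with 0.57 in shoots, CA0986, with 0.56 in shoots, and U162, with -0.56 in roots. The nearest outside were U298 with -0.61 in roots, U403 with -0.61 in roots and U076 with -0.62 in shoots. Only 12 of the 36 had a value on every 48 h array and were inside the limit on all of them. CA1074 and U367 had no value on array 1 of roots, were inside on the others and are not in that count.

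**Figure D1:**
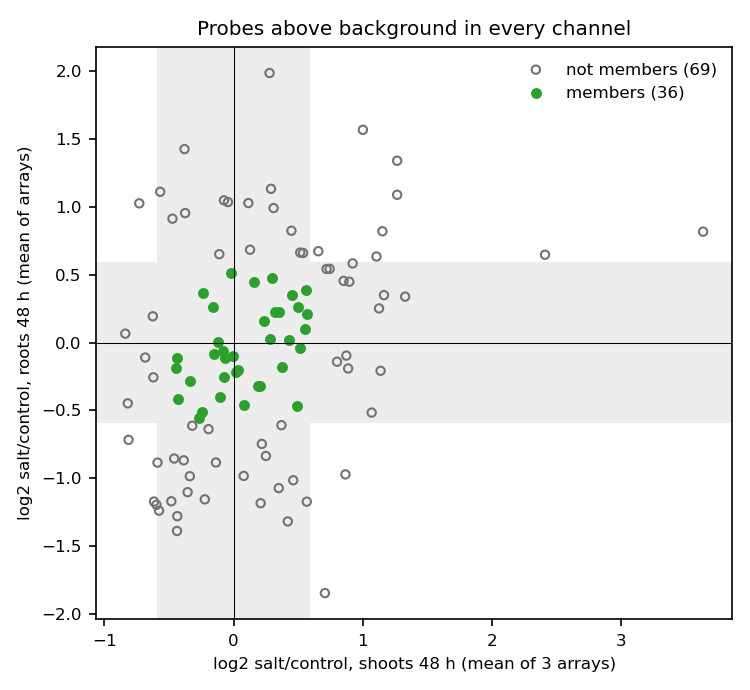
Mean log2 ratio of salt over control in shoots (x axis) and roots (y axis) at 48 h for the 105 probes above background in every channel. Grey bands mark 1.5-fold in either direction, and the 36 filled points lie inside both bands because the bands chose them.

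In a linear model of loess-normalised ratios over the 21 separate arrays (limma, with Benjamini-Hochberg adjustment), the adjusted p was under 0.05 for 4 of the 36 in shoots at 48 h, where 31.3% of all probes tested passed, and for 4 in roots, where 41.0% passed. The rule used these arrays, so nothing is read from these counts. In shoots they were CA0730, CA0986, U003 and U134, all above 0, and in roots CA0178, U014, U052 and U195, all below 0. With loess normalisation 35 fitted values stayed inside 1.5-fold in shoots, where 68.5% of all tested did, and 34 in roots, where 59.4% did. Those beyond it were U003 in shoots at 0.65 and, in roots, CA0178 at -0.62 and U052 at -0.59. In the authors' deposited table of log2 ratios, 34 of the 36 lay inside the limit in shoots at 48 h and 23 in roots. The share over all probes of that table was not counted. The farthest was U162, at -1.49 in shoots and -3.03 in roots in the authors' deposited table. By the ratio of the rule the arrays of U162 read -0.89, -0.49 and 0.58 in shoots at 48 h and -1.41, -0.38 and 0.11 in roots, so that its mean inside the limit came from arrays on both sides of 0.

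Levels by organ were read from the control channels as log2 of background-subtracted signal, with 0 at the median of the 105 probes in that channel, so that a value compares a probe with itself in other organs. Levels of the 36 probes differed between organs with this centring. For leaves minus flowers the median size of the difference was 0.33 for the 36, 0.53 for the 69 and 0.75 over all tested. The value over all tested includes a shift, as their median difference was 0.62. For shoots minus roots at 48 h the median size was 0.59, 0.73 and 0.73. The ratios that chose the 36 used the same 48 h control channels, so nothing is read from that comparison. Over leaves, flowers, shoots and roots, the distance between the highest and the lowest organ mean ran from 0.26 for U381 to 3.65 for U006, with a median of 0.95 (log2). It was under 1 for 19 probes and over 2 for 2. With this centring the lowest mean was in roots for 19 of the 36, and the highest was in leaves for 15. The same counts were not made for the other probes. Root means rest on 2 or 3 arrays, against 5 or 6 for the other organs. The presence condition used these same intensities, which bounds every level from below.

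The widest organ difference belonged to U006. Its unstressed level in shoots at 48 h was 2.22, 2.12 and 3.15 on the 3 arrays, and in roots -1.04 and -1.26 on the 2 arrays with a value. The groups did not overlap. All 18 control spots of U006 in shoots at 48 h were saturated, so its shoot level is a minimum. With this centring, the group means of 2.50 and -1.15 put U006 at least 12.6-fold higher in shoots than in roots. The fitted difference was 3.71 ± 0.67 (SE; limma, adjusted p = 0.000522). This bound depends on the scaling, and with quantile normalisation of brightness between arrays the fitted difference was smaller, at 2.64. At 24 h the control level was 1.65, 2.39 and 3.36 in shoots and -1.002 in the single root scan. U367 showed the same order, with 2.15, 2.04 and 2.42 in shoots at 48 h and -0.30 and 0.22 in roots, a difference of 2.265 ± 0.73 (SE; limma, adjusted p = 0.0236). Of its 18 control spots in shoots, 11 were saturated. The call for U367 was lost without array 1 or without array 3 of shoots.

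Other probes were higher below ground. U014 read -0.42, -0.43 and 0.21 in shoots at 48 h and 1.15, 1.65 and 1.03 in roots, and U446 read -1.72, -1.53 and -0.52 in shoots and 0.50, -0.10 and 0.27 in roots. Neither pair of groups overlapped. The differences of shoots minus roots were -1.49 ± 0.28 for U014 and -1.48 ± 0.27 for U446 (SE; limma, adjusted p = 0.000605 and 0.00045). U132, at -2.33, -2.58 and -2.10 in shoots and -0.70, -1.55 and -0.12 in roots, differed by -1.55 ± 0.40 (SE; limma, adjusted p = 0.00592), and its single root scan at 24 h read -1.85, within the range of the 24 h shoot arrays. Of the 36 probes, 9 passed in this contrast, where 39.1% of the 233 probes tested passed. U006, U367, U003 and U068 were higher in shoots, and U014, U446, U132, U419 and CA0594 higher in roots. The calls for U003, U068 and U419 were lost in 9, 8 and 7 of the 11 alternatives tried for each, with adjusted p-values up to 0.808, 0.717 and 0.147 (limma). The count was 5 when any one of 4 arrays was left out, namely array 1 or 3 of shoots or array 2 or 3 of roots. Of all 229 probes, 29 were higher and 34 lower without array 1 of shoots, and 31 and 37 without array 3. Without array 2 or 3 of roots only 32 of the 36 could be tested, and U006 and U367 were not among them. Over all probes, 8 were higher and 30 lower of 117 without array 2 of roots, and 11 and 29 of 114 without array 3.

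Between unstressed leaves and flowers, 6 of the 36 passed, where 45.6% of the 351 U and CA probes tested passed. U420 had the largest negative difference. Its leaf levels ran from -2.17 to -0.69 and its flower levels from -0.52 to 0.22, without overlap, and leaves minus flowers was -1.365 ± 0.23 (SE; limma, adjusted p = 0.000166). U014 (-0.955 ± 0.20), CA0178 (-0.88 ± 0.25), U446 (-0.80 ± 0.185) and CA0594 (-0.54 ± 0.16; differences with SE) were lower in leaves as well, with limma adjusted p-values from 0.000816 to 0.0121. U328 alone was higher in leaves, by 1.58 ± 0.50 (SE; limma, adjusted p = 0.016). Its control level in drought flowers was 2.58 on array 1 but -0.80 and -1.07 on arrays 2 and 3. Without drought flowers array 1, 13 of the 36 passed, as did 207 of all 346 probes tested, and the difference for U328 was 2.16. Without array 2 or array 3 of drought flowers U328 no longer passed (limma, adjusted p = 0.0725 and 0.079).

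U014, U446 and CA0594 were lower in leaves than in flowers and lower in shoots than in roots, and no other probe of the 36 passed in both contrasts. Neither contrast called 24 of the 36. Calls in both or in neither contrast were not counted for the other probes, so nothing about the 36 is read from these counts. The median difference of the 36 was 0.15 for leaves minus flowers, against 0.62 over all probes tested, and 0.07 for shoots minus roots, against -0.08. These medians and the split of calls depend on the scaling. With centring on all U and CA probes, 1 of the 36 was higher and 8 lower in leaves (56 and 64 of all 351), and 4 higher and 3 lower in shoots (30 and 41 of all 233). With quantile normalisation of mean brightness between arrays (Aquantile) 1 was higher and 25 lower in leaves, with a median of -0.55, against 76 and 100 of all 338 and a median of -0.03. In shoots 3 were higher and 15 lower, with a median of -0.60, against 25 and 97 of all 224 and a median of -0.69. The probes named in these organ contrasts kept their signs under both scalings.

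**Figure D2:**
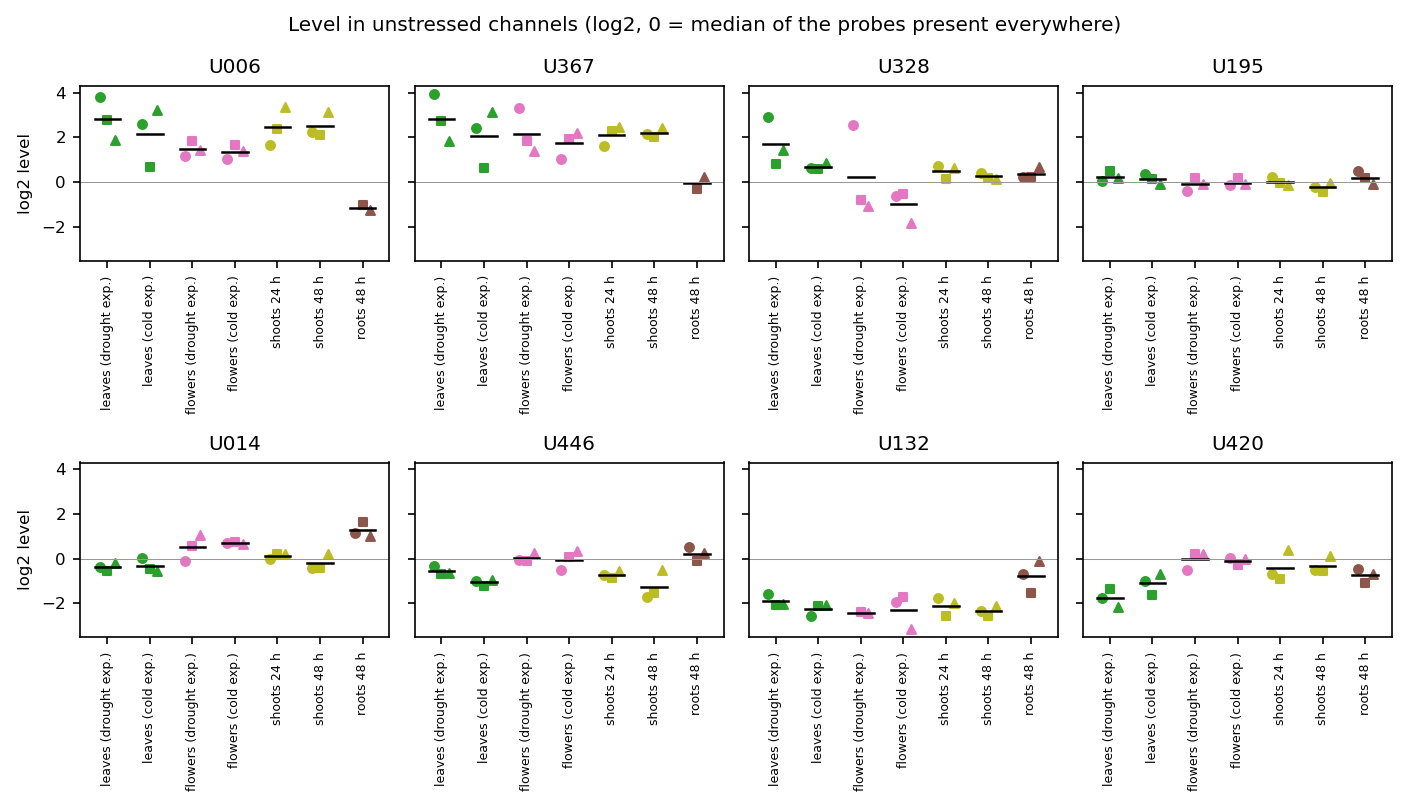
Log2 level in unstressed control channels for 8 of the 36 probes, with 0 at the median of the 105 probes present everywhere. Points are arrays (circle, square and triangle for arrays 1, 2 and 3) and bars are means; U006 and U367 sit lowest in roots, U014, U446 and U132 highest there, U420 lowest in leaves, and U195 stays within about the same level in all organs.

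Under drought no probe of the 36 passed the test in leaves, and none did among the 441 tested (0.0%; limma, Benjamini-Hochberg). At an unadjusted p under 0.05, 6 of the 36 passed with limma, where 17.7% of all tested did, and 3 with the methods' t-test, where 7.26% did. All 36 fitted ratios were inside 1.5-fold, as were 92.5% of all probes tested. Their median was 0.13 and their range -0.40 to 0.57, against a median of -0.01 over all probes tested. CA0849 read 0.93, 0.61 and 0.37 in drought leaves (fitted 0.57 ± 0.33), U420 read 0.45, 0.35 and 0.77 (fitted 0.48 ± 0.19), and U162 read 0.30, -0.14 and 0.89 (fitted 0.46 ± 0.14; all SE). These were the largest values, with limma adjusted p-values of 0.368, 0.212 and 0.178. The smallest were U071 with -0.40 ± 0.14, CA0030 with -0.29 ± 0.16 and CA1034 with -0.20 ± 0.27 (fitted, SE).

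In flowers under drought none of the 36 passed and none of the 434 probes tested (0.0%; limma, Benjamini-Hochberg), and 6 of the 36 had an unadjusted p under 0.05 with limma (11.8% of all tested) and 0 with the methods' t-test (2.76%). The spread among these probes came mostly from 1 array. On array 1, whose control channel was dim, their ratios spread from -2.53 to 1.89 with an SD of 1.05 over the 34 with a value, whereas on arrays 2 and 3 the SDs were 0.16 and 0.20 and every probe lay inside 1.5-fold. On array 1, 10 were above and 9 below the limit. Neither these counts nor the SDs were taken for the other probes, so they are not read as particular to the 36. U328 read -2.53, -0.21 and -0.37, U171 read -2.20, -0.02 and -0.24, and U274 read -2.08, -0.24 and -0.05. At the other end U060 read 1.89, -0.08 and -0.10 and CA0849 read 1.64, -0.12 and -0.13, and both have many saturated spots. The part of dim signal and saturation in these values was not tested.

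The fitted values in drought flowers were -1.03 ± 0.36 for U328, -0.88 ± 0.33 for U171, -0.81 ± 0.36 for U274, 0.44 ± 0.26 for U060, 0.40 ± 0.33 for CA0849 and 0.38 ± 0.21 for U003 (SE). Without array 1 they were -0.29, -0.13, -0.15, -0.09, -0.13 and 0.26, so that U060 and CA0849 changed sign. Without array 2, U328, U171 and U060 passed at adjusted p-values of 0.0492, 0.0496 and 0.0492 in limma. Without array 3, U328, U171 and U274 passed at 0.0486, 0.0486 and 0.0497 in limma. With all arrays, 32 of the 36 fitted ratios were inside 1.5-fold, where 90.6% of all probes tested were, and their median was 0.01 against 0.04.

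**Figure D3:**
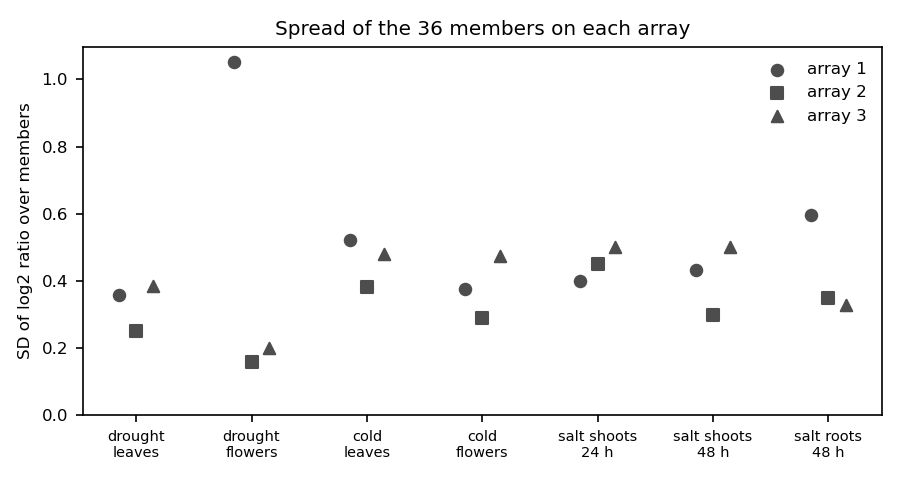
Standard deviation of the log2 ratio over the 36 probes on each of the 21 separate arrays, by condition. Array 1 of drought flowers stands apart at 1.05, and the other arrays lie between 0.16 and 0.60.

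Under cold, 2 of the 36 passed in leaves, where 3.73% of the 429 probes tested passed (limma, Benjamini-Hochberg). U071 read 1.38, 1.17 and 0.32 in cold leaves, above 0 on 3 of 3 arrays, and rose by 0.79 ± 0.14 (fitted log2, SE; limma, adjusted p = 0.00861), or 1.72-fold. CA0689 read -1.04, -0.71 and -1.77, below 0 on 3 of 3 arrays, and fell by 1.14 ± 0.26 on the log2 scale (fitted, SE; limma, adjusted p = 0.0213), or 2.2-fold. Neither probe had a saturated spot. Over the alternatives tried, the fitted value ran from 0.73 to 1.08 for U071 and from -1.45 to -0.68 for CA0689, while the limma or t-test adjusted p ran from 0.00685 to 0.529 and from 0.00175 to 0.483. Both calls were lost without array 1 (adjusted p = 0.0629 and 0.0692) and without array 3 (0.0638 and 0.332), as well as when cold leaves were fitted alone (0.234 and 0.174).

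U071 had the largest dye term of the 36, 0.51 ± 0.06 (log2, SE; limma, adjusted p = 0.000119), and its value on the dye-exchanged array 3 was the lowest of the 3 in each of the 7 conditions with separate arrays, counting the arrays with a value. Without a dye term the cold leaf value of U071 was 0.96 and the adjusted p 0.16 (limma). In all, 8 of the 36 had a dye term past the threshold, where 9.6% of the 500 probes did. CA0849 read 1.34, 0.30 and 1.44 in cold leaves, with 12 of 18 treated spots and 3 of 18 control spots saturated, so that the size of its ratio is not measured, and its fitted 0.96 ± 0.33 did not pass (SE; limma, adjusted p = 0.148). U326 (-0.47 ± 0.21) and U274 (-0.44 ± 0.36; fitted, SE) were the next lowest. U420 read 0.76, 0.93 and -0.58 in cold leaves, with a fitted 0.32 ± 0.19 (SE; limma, adjusted p = 0.444). Without array 3 it was 0.79 and passed (limma, adjusted p = 0.0192). The median of the 36 was -0.02 against 0.01 over all probes tested, and 33 of the 36 were inside 1.5-fold, where 88.3% of all tested were.

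In flowers under cold none of the 36 passed, nor did any of the 433 probes tested (0.0%; limma, Benjamini-Hochberg). At an unadjusted p under 0.05 there were 3 of the 36 with limma, against 11.8% of all tested, and 5 with the methods' t-test, against 9.24%. U071 read 1.248, 0.997 and 0.24 in cold flowers and its fitted value of 0.66 ± 0.14 just missed the threshold (SE; limma, adjusted p = 0.0544), with adjusted p-values of 0.0112 to 0.656 over the alternatives. CA0030 read 0.72, 0.65 and 0.58, all close together, with a fitted 0.59 ± 0.16 (SE; limma, adjusted p = 0.0941). U328 had the largest fitted value, 0.68 ± 0.36 (SE), which rested on 1.52 on array 3 against 0.14 and 0.36 on arrays 1 and 2 and was 0.17 without array 3. CA0689 was below 0 on all 3 arrays, with -0.60, -0.41 and -0.77 and a fitted -0.56 ± 0.26 (SE; limma, adjusted p = 0.416). U060 and U069, the other low values, were at -0.33 ± 0.26 and -0.33 ± 0.16 (fitted, SE). For U060, 9 of 18 control spots and 12 of 18 treated spots were saturated there. The median of the 36 was -0.04 against -0.02, and 33 were inside 1.5-fold, where 93.1% of all tested were.

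**Figure D4:**
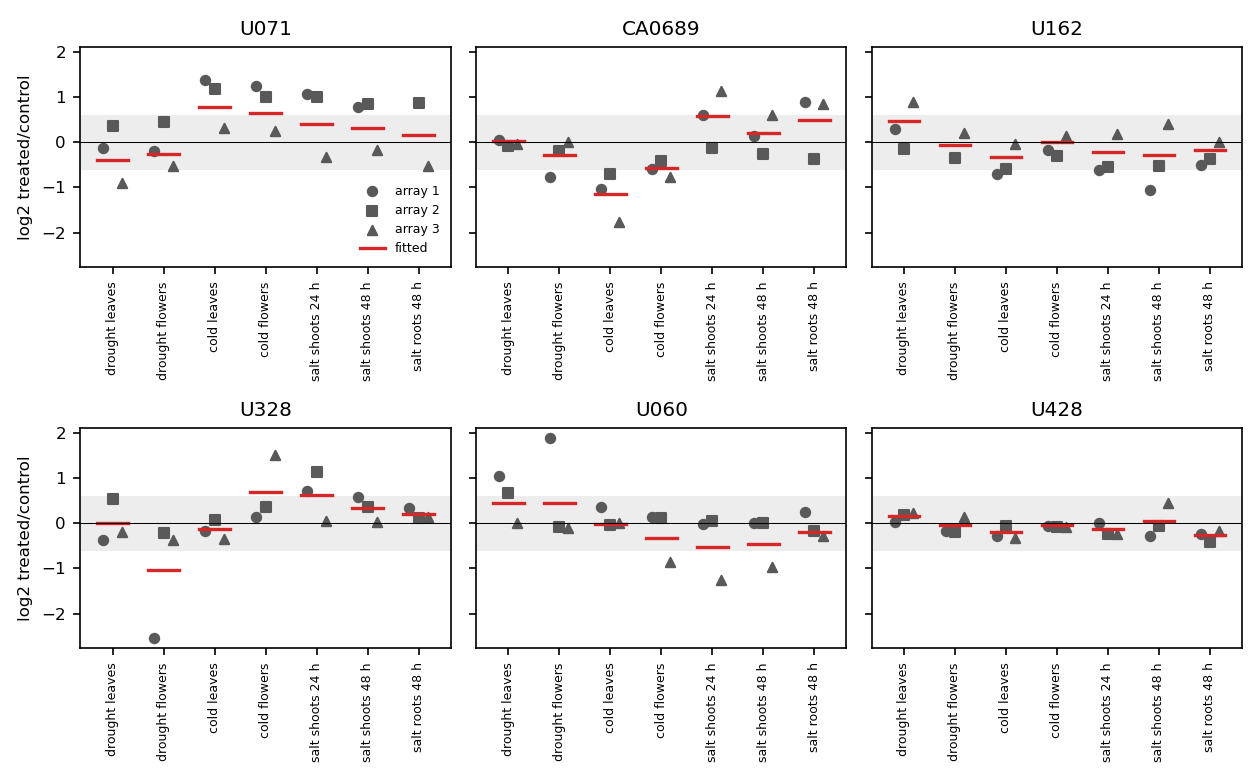
Log2 ratio of treated over control on each array (circle, square and triangle for arrays 1, 2 and 3) and fitted value (red bar) for 6 of the 36 probes in 7 conditions. The grey band marks 1.5-fold; U071 is above 0 on all cold arrays and CA0689 below 0 on all of them, U328 and U060 depart in opposite directions on array 1 of drought flowers, and U428 stays inside the band throughout.

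The difference between drought and cold was itself tested within the model. In leaves 2 of the 36 passed, where 3.72% of the 403 probes tested passed (limma, Benjamini-Hochberg). U071 was lower under drought than under cold by a difference of -1.19 ± 0.20 (SE; limma, adjusted p = 0.00898), from -0.40 in drought leaves to 0.79 in cold leaves. Its drought arrays (-0.13, 0.35 and -0.90) and cold arrays (1.38, 1.17 and 0.32) overlapped by a narrow margin across dye orientations, and within each orientation the cold arrays were higher. U162 went the other way, with 0.30, -0.14 and 0.89 under drought and -0.71, -0.59 and -0.04 under cold, a difference of 0.80 ± 0.19 (SE; limma, adjusted p = 0.0425). Its 2 groups overlapped across dye orientations, not within them, and its dye term was -0.34 ± 0.05 (SE). Both differences were the same size without the dye term, at adjusted p-values of 0.165 and 0.221 (limma).

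The call for U162 was lost without array 1 or 3 of drought leaves (adjusted p = 0.0779 and 0.145) and without array 1 or 3 of cold leaves (0.05 and 0.109). The call for U071 held when any one of these 6 arrays was left out. U069, above 0 on all 3 drought leaf arrays (0.41, 0.08 and 0.62) and below 0 on all 3 cold leaf arrays (-0.33, -0.36 and -0.54), had a difference of 0.78 ± 0.23 that missed the threshold (SE; limma, adjusted p = 0.0511). CA0689 differed by 1.16 ± 0.37 (SE; limma, adjusted p = 0.0624) and passed when array 2 of cold leaves was left out (0.0496). None of the 36 passed in the other contrasts, which were drought minus cold in flowers, leaves minus flowers under drought and leaves minus flowers under cold, and no probe of the 415, 389 and 388 tested did (0.0% in each; limma). At an unadjusted p under 0.05 the 36 gave 8, 1 and 1 with limma, where 11.3%, 7.97% and 4.38% of all tested passed. For U071 in flowers the drought minus cold difference was -0.92 ± 0.20 (SE; limma, adjusted p = 0.144), and it passed without array 2 of drought flowers (limma, adjusted p = 0.0444, together with U328) and without array 3 (0.0467, together with CA0030).

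Salt shoots at 24 h were not used for the ratio limit, although they come from the same experiment and organ as one of the conditions that were. None of the 36 passed, where 5.08% of the 394 probes tested passed (limma, Benjamini-Hochberg), and 8 of the 36 had an unadjusted p under 0.05 with limma (27.7% of all tested) and 1 with the methods' t-test (11.2%). Among the 69 probes left out, 10 passed. The median size of the fitted ratio was 0.21 for the 36, 0.40 for the 69 and 0.28 over all tested, and 35 of the 36 were inside 1.5-fold, where 77.4% of all tested were. The largest was U328, with 0.71, 1.12 and 0.05 and a fitted 0.63 ± 0.36, followed by CA0689 with 0.57 ± 0.26 and U274 with 0.55 ± 0.36. The smallest were U060 with -0.54 ± 0.26, CA0178 with -0.51 ± 0.18 and U068 with -0.45 ± 0.17 (all fitted, SE). U060 read -0.01, 0.05 and -1.25 on the 3 arrays, with 12 of 18 spots saturated in each channel. CA0689 was thus on opposite sides of 0 in cold leaves and in salt shoots at 24 h, a contrast that was not tested.

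The single scan of salt roots at 24 h gave 25 of the 36 inside 1.5-fold, with 9 below and 2 above, and no test is possible. Its median was -0.33, and 27 of the 36 were below 0. The lowest were CA0849 at -1.34, U068 at -1.08, U014 at -1.06 and U060 at -1.001. CA0030 at 0.64 and CA0730 at 0.635 were the probes above the limit. Of the 69 left out, 31 were inside the limit in that scan, 24 below and 14 above. Their median was -0.19, and 39 of the 69 were below 0.

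**Figure D5:**
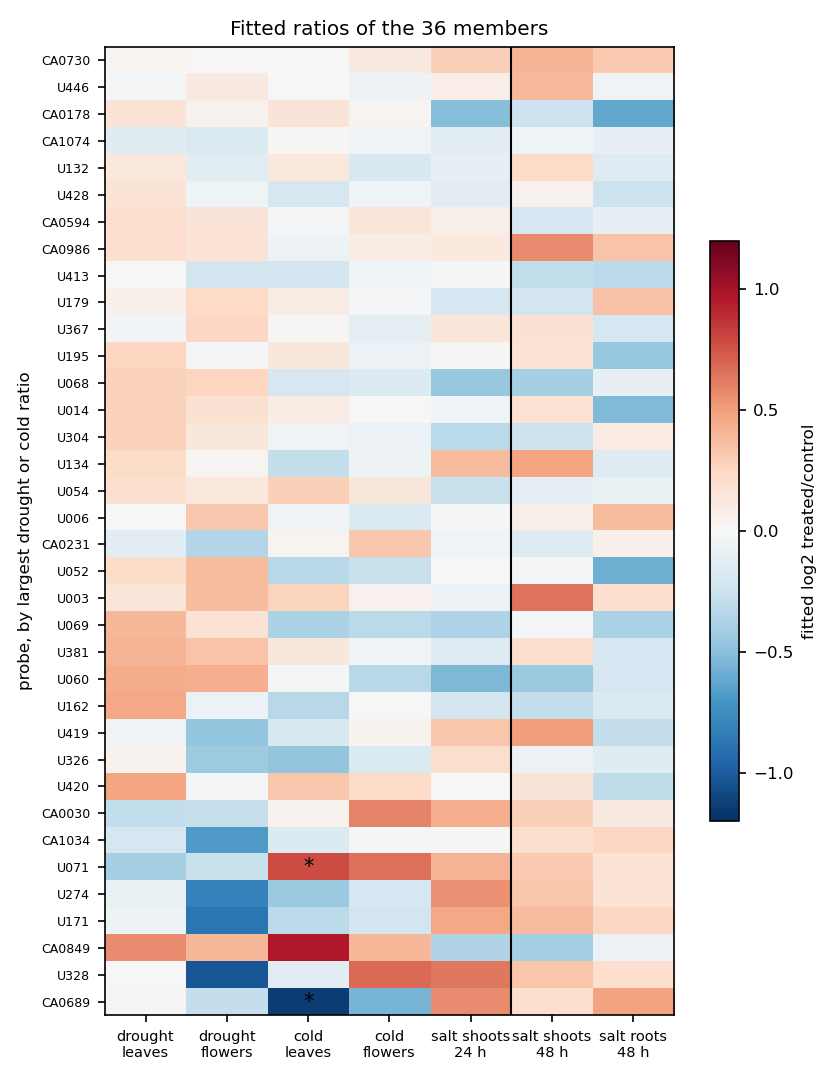
Fitted log2 ratio of treated over control (limma) for the 36 probes in 7 conditions, ordered by the largest absolute value over drought and cold. Asterisks mark adjusted p-values under 0.05 in the 5 conditions to the left of the line, CA0689 and U071 in cold leaves; the 2 conditions to the right chose the probes.

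Across the 4 drought and cold conditions, 28 of the 36 (77.8%) had fitted ratios inside 1.5-fold in all of them. The share was 81.2% for the 69 probes present everywhere but left out (56 of 69) and 74.5% of the 368 probes tested in all 4, so the share of the 36 was close to the background. The median over probes of the largest absolute fitted ratio was 0.34 for the 36, 0.43 for the 69 and 0.43 for all 368. Over the 12 drought and cold arrays, the SD of a probe ran from 0.13 to 0.93 with a median of 0.33 for the 36, and from 0.11 to 0.80 with a median of 0.39 for the 69. Of the 36, 8 had over 20% of spots saturated, against 5 of the 69, and the part of saturation in these values was not tested. Without these 8 probes, 21 of 28 were inside in all 4. Without array 1 of drought flowers the count was 31 of 36, and without array 2 of drought flowers 22 of 34.

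The 5 steadiest by largest fitted drought or cold ratio were CA0730 (0.11), U446 (0.11), CA0178 (0.16), CA1074 (0.18) and U132 (0.19). For CA0730 and CA1074 most spots were at the ceiling, 52.8% and 64.3%, and ratios between saturated channels have no measured size. U446 was steady in the fit, which takes out its dye term of 0.25 ± 0.06 (log2, SE; limma, adjusted p = 0.0263). From array to array its values ran from -0.54 to 0.48, and the part of the dye in this range was not tested. U446 also differed between organs. CA0178, which was lower in leaves than in flowers, had no saturated spot and an SD of 0.23 over the 12 arrays. U428, which came next at 0.20, had an SD of 0.17, the lowest of the 13 probes with no saturated spot, with values from -0.32 to 0.23, and passed in neither organ contrast. U195, with the second-narrowest spread of organ means at 0.30, had a largest fitted drought or cold ratio of 0.26.

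The 8 probes outside the limit in at least 1 drought or cold condition were CA0030, CA1034, U071, U274, U171, CA0849, U328 and CA0689. For CA1034, U274, U171 and U328 the largest departure was in drought flowers, where array 1 set it. In the authors' deposited table, 35 of the 36 were inside 1.5-fold in drought leaves, 33 in drought flowers, 31 in cold leaves and 34 in cold flowers. No share over all probes of that table was counted, so these numbers have no background beside them. In cold leaves the authors' deposited table gave 0.84 for U071 and -1.68 for CA0689, and in cold flowers 0.78 and -0.52. Its centring and the constant in its shifted logarithm are not stated.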

How the data were processed

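The 2-colour cDNA arrays were quantified by the authors as spot and local background intensity in ImaGene 5.5, per the file headers, and each deposited intensity is a mean over the pixels of a spot, given with a quality flag. The authors' deposited table of log2 ratios holds means over 3 replicates made in GeneSight after background subtraction and LOWESS, per the series design text; its log2 values served for side-by-side values only. Here background was corrected with normexp (offset 50), each array was normalised with global loess, spots with a flag in 1 or both channels were dropped, and spots were averaged per probe. Models were fitted with limma 3.58.1 in R 4.3.3 over 21 arrays, with 1 coefficient per condition and a dye term; probes needed values on at least 2 arrays, the Benjamini-Hochberg adjustment ran over all probes tested, and the threshold was 0.05. Salt roots at 24 h entered no fit. Levels were tested on control channels centred on the 105 probes. A call means an adjusted p under 0.05.

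Named probes were those past the threshold, the 3 largest and 3 smallest fitted ratios per tested condition, the 5 steadiest, the extremes of each organ contrast and those next to the limit; further probes (U195, U381 and U428 among them) were named after their values were seen. The members and lists were chosen with earlier results of these data known. The fits were tested on simulated data. The number of arrays limits the precision. Alternatives are given in the closing section.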

Additional observations from a re-analysis of the deposited data

Results flagged for a closer look

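For U071 the difference of drought leaves minus cold leaves was -1.19 on the log2 scale, and for U162 it was 0.80; both were singled out because the test of the difference between the stresses itself passed (limma, adjusted p = 0.00898 and 0.0425). U071 was higher under cold than under drought in each dye orientation, and U162 lower. The dye terms of these probes were 0.51 and -0.34, and the arrangement of dyes was the same in both conditions. The differences without a dye term were -1.19 and 0.80. In the authors' deposited table, U071 read -0.23 in drought leaves and 0.84 in cold leaves, and U162 read 0.02 and -0.87. No group had more than 3 arrays, so single arrays were not screened as outliers within groups.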

How the results depend on the processing

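The number of members was 14 with a window of ±0.32 on the log2 scale and 71 with 2-fold. It was 12 with a value required inside the window on every 48 h array. Leaving out 1 array gave 31 to 44. The counts of calls that follow show how far each result moved with the setting. For most of them the share over all probes under the same setting is not given. Nothing about the members is therefore read from them. In drought flowers 0 to 3 members were called with 1 array left out. In cold leaves 5 were called with scaling between arrays, 1 with flagged spots kept, 1 with no dye term, 0 with the condition fitted alone, 0 with the methods' t-test and 0 to 3 with 1 array left out. In cold flowers 1 was called with no background correction, 1 with values required on 3 of 3 arrays, 2 with array quality weights, 1 with quantification day as a block and 5 with the condition fitted alone. In salt shoots at 24 h array quality weights gave 8. For drought minus cold in leaves, scaling gave 7, flagged spots kept 0, no dye term 0, the pair fitted alone 0 and 1 array left out 1 to 3; in flowers the last gave 0 to 2. For leaves minus flowers in level, Aquantile gave 26 and 1 array left out 4 to 13. Treated channels gave 12 there (154 higher and 37 lower of all 349 probes), and cold controls alone 3 (89 and 23 of all 374). For shoots minus roots Aquantile gave 18 and 1 array left out 5 to 8, with 32 of the 36 testable without array 2 or 3 of roots. In drought flowers U060 changed sign to -0.29 with the ratio of the rule, -0.23 with median centring, -0.12 with scaling, and -0.036 with array quality weights, and with 1 array left out it ran from -0.088 to 0.893; CA0849 changed to -0.33, -0.27, -0.145 and -0.081 likewise and ran from -0.127 to 0.754; the cause was not tested. The count inside 1.5-fold in all 4 drought and cold conditions was 22 to 31 over its alternatives, some of them added after the data were seen, and 21 of 28 without saturated members. With array number as a replicate block, 2 members were called in cold leaves, 2 for drought minus cold in leaves and 0 in the other ratio tests, and 28 stayed inside 1.5-fold; the residual correlation of same-numbered arrays ran from -0.34 to 0.60, so the numbers were not taken as pairs. Spots at the ceiling and the dim control channels limit these values as well.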
